A study of Homo sapiens with 18 samples.

Results

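The nuclear hormone receptors other than the NR4A genes were followed through 6 groups of SKOV-3 cells, which are a human ovarian carcinoma line. The 36 genes of this family module were chosen by name, and each was read from its brightest probe set, meaning that of highest mean log2 intensity among those annotated to the gene alone. Such a probe set was found for 31 of them, out of 19775 genes on the array. NR1H2, NR1H4, NR1I2, NR2F2 and HNF4A, for which none was found, were not analysed here. RNA was measured on Affymetrix U133 Plus2 arrays, 18 in all and 3 per group. LHR- cells carried no luteinizing hormone receptor (LHR), LHR+ cells were stably transfected with it, and LH1, LH4, LH8 and LH20 were LHR+ cells kept with luteinizing hormone (LH) at 50 ng/ml for 1, 4, 8 or 20 h. The LHR- cells are called the parent line in some of the study's text and mock-transfected in other places, so LHR+/LHR- differences can hold those of transfection and selection. LHR+ cells without LH formed a single group, so hours in culture and hours with LH cannot be told apart. The series' own design text calls the 3 replicates of a group independent, and nothing ties them to cultures of separate days, so the p-values measure the spread between these samples.

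Nuclear receptors are transcription factors that bind DNA, most of them in a way that depends on a small fat-soluble ligand. Steroid receptors bind mostly as homodimers, whereas the receptors for retinoic acid, vitamin D, thyroid hormone, fatty acids and oxysterols pair with an RXR protein, and orphan members have no settled ligand. They recruit coactivators or corepressors, and in the ovary the estrogen, progesterone and glucocorticoid receptors take part in follicle growth and in ovulation after the LH surge. LHR itself is a receptor of the cell surface that raises cyclic AMP, which acts on genes partly through the cAMP response element TGACGTCA and its shorter form TGACG.

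ESR1 and NR3C2, the genes of estrogen receptor alpha and of the mineralocorticoid receptor, were the members called in both LHR+/LHR- and LH20/LHR+, and a stretch of DNA before a start site of each is shown for that reason. The stretches hold the 250 bases before a start in the RefSeq promoter table of GRCh38.p14, read 5′ to 3′ on the gene's strand, and the capitals mark the TGACG motif or its reverse complement. The one of ESR1 lies at chr6:151656422-151656671 on the + strand and the one of NR3C2 at chr4:148445323-148445572 on the - strand.
ESR1: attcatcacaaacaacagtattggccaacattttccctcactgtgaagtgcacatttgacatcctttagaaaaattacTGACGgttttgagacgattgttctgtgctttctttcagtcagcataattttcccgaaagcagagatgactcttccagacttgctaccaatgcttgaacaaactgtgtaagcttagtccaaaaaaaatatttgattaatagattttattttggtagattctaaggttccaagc
NR3C2: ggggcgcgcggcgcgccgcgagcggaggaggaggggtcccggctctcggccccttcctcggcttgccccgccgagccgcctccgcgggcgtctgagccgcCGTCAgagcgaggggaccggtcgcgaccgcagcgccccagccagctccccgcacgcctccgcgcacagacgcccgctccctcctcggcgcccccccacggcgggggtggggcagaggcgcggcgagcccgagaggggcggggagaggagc
The motif began 172 bases before the start in ESR1 and 150 bases before it in NR3C2, and the G and C content was 36.0% and 81.6%. Both windows were picked because they hold the motif, and which start these cells used is unknown. Of the windows listed, each with 250 bases before and 50 after a start, 1 of 6 for ESR1, 3 of 4 for NR3C2 and 1 of 8 for ESRRG held TGACG on either strand. The NR3C2 windows with the motif 23 and 14 bases after the start overlap and hold the same site. Over the 27 receptor genes in that table, 16 of 74 windows held it, against 24.6% of all 35116 windows. TGACGTCA, which contains TGACG, was in 2 of 74 against 1.85%. AGGTCA, the unit that many nuclear receptors bind, was in 13 of 74 against 13.8%. These shares lay close to those of all promoters, and a match is a description of letters and not a binding site.

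A gene was called in a comparison when limma gave p under 0.05 and a Benjamini-Hochberg adjusted p under 0.1, when the fold change between geometric means was at least 2, and when the 3 arrays of one group lay above the 3 of the other. A gene passed the test when its adjusted p alone was under 0.1. Differences are given as log2 fold changes of intensity + 1, a scale that understates the changes of dim genes, and intensities of different genes are not set against each other, since probe sets differ in brightness. Of the 31 receptor genes, 22 had intensities of at least 16 on every array. PGR, RXRG and RORB, for the progesterone receptor, RXR gamma and ROR beta, lay under 16 on all 18 arrays at their brightest probe sets, so no level is read from these. ESR2, RARB, NR1I3, ESRRG, NR2E1 and NR0B2 were under 16 on some arrays, 3 for ESR2, 4 for RARB, 15 for NR1I3, 9 for ESRRG, 7 for NR2E1 and 16 for NR0B2. The probe sets with the highest signal were those of PPARD, between 3237 and 5183 over the arrays, NR3C1, between 2899 and 4328, and NR2C1, between 2202 and 3661, which does not order the genes by their RNA.

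The arrays had median intensities between 46.9 and 57.9, and 16 of 18 correlated best with an array of their own group. The probe set of LHCGR, the LHR gene, lay between 0.196 and 4.11 in all groups, so it gives no check of the transfection. Of 9 markers of the line, 8 were above 16 on at least 1 array, with MUC16 the exception, and their summed intensity was between 15817 and 18760 in LHR- and between 26826 and 27625 in LH20. Of 7 markers of leukocytes, endothelium and fibroblasts, 6 had a probe set. Their sum was 217 to 241 in LHR-, 230 to 253 in LHR+ and 368 to 432 in LH20, and the T cell marker CD3E was under 16 throughout. In these bulk samples, fewer cells that express a gene and less RNA per cell cannot be told apart.

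Few members were called in any comparison. In LHR+/LHR-, 3 of 31 were called (9.68%), against 4.63% of all genes. No member was called at LH1/LHR+ (0.324% of all genes) or LH4/LHR+ (2.23%). The same contrasts without limma's moderation of the variance, the methods' analysis of variance, also gave 0 in both. The unadjusted limma p was under 0.05 for 3 and 9 members. The share of all genes at that threshold was not counted, so these counts are no result about the receptors as a group. VDR alone was called at LH8/LHR+ (1.73%), and 5 members, or 16.1%, at LH20/LHR+ (7.72%). Without regard to fold, 10, 1, 4, 6 and 13 members (32.3%, 3.23%, 12.9%, 19.4% and 41.9%) passed the test in these 5 comparisons, against 18.6%, 0.865%, 10.9%, 10.9% and 34.0% of all genes. In all, 6 members were called in at least 1 of the 5, and 12 passed the test in none of them. The same counts over all genes were not made, so these numbers describe the members without a background. The 4 comparisons of LH with LHR+ share the same LHR+ arrays, and so does LHR+/LHR-.

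**Figure D1:**
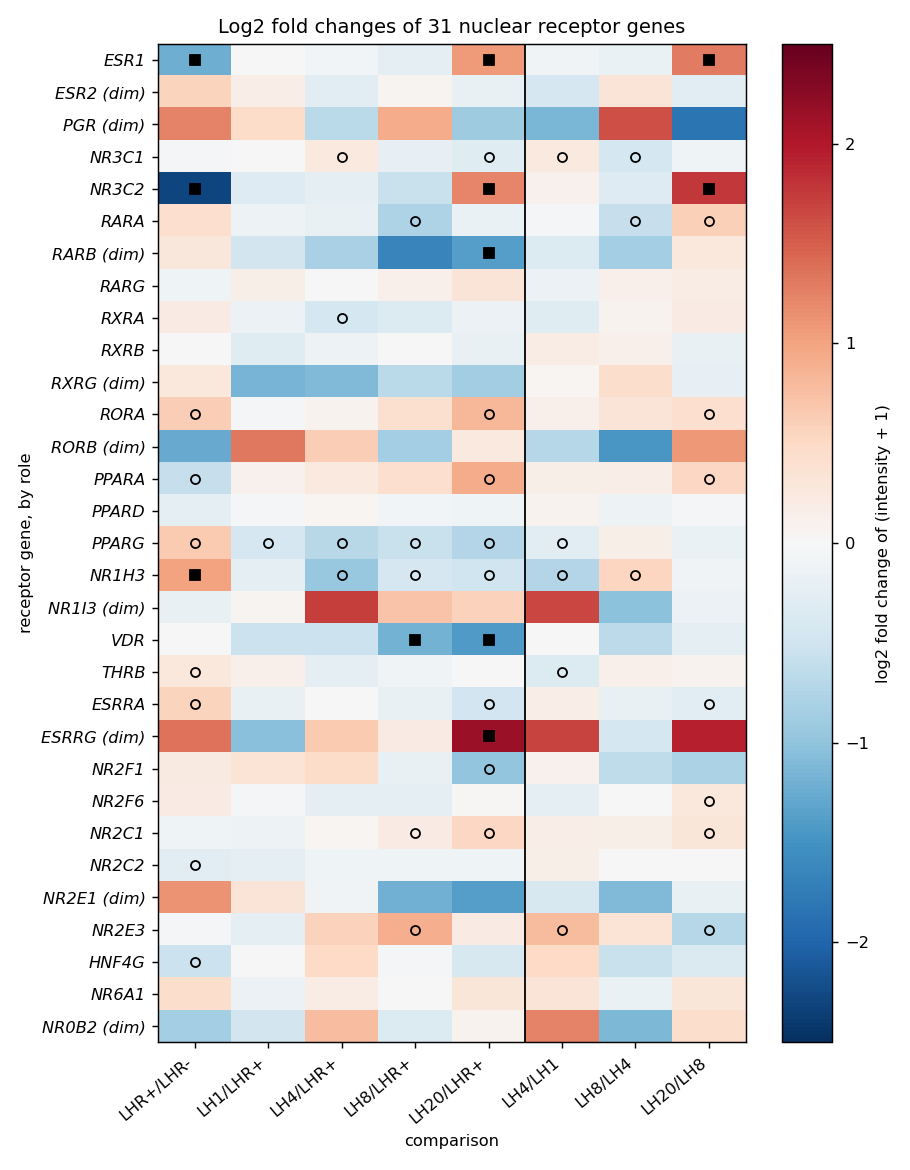
Log2 fold changes of intensity + 1 for the 31 receptor genes (rows, ordered by role) in 8 comparisons (columns), with red for higher and blue for lower in the first-named group. Filled squares mark called genes and open circles genes that passed the test without being called; genes marked dim were under 16 on at least 1 array, and strong colours without a mark are mostly theirs.

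Of the steroid receptors, ESR1 was lower in LHR+ cells and back near its LHR- level after 20 h of LH. Its intensity was 330, 352 and 388 on the LHR- arrays and 170, 122 and 172 on the LHR+ arrays. It stayed low with LH for up to 8 h, with 154, 158 and 151 in LH1, 144, 131 and 163 in LH4 and 127, 118 and 143 in LH8. In LH20 it was 306, 333 and 323. The 12 arrays of LHR+, LH1, LH4 and LH8 all lay below the 6 of LHR- and LH20, which overlapped each other. The change was -1.21 ± 0.13 (log2, SE) in LHR+/LHR- (adjusted p = 2.74e-05), 1.06 ± 0.13 in LH20/LHR+ (adjusted p = 3.33e-05) and 1.31 ± 0.13 in LH20/LH8 (adjusted p = 1.51e-05). LH20 and LHR- differed by -0.15 ± 0.13, with adjusted p = 0.444. Without LHR+ replicate 2, the lowest LHR+ array, the LH20/LHR+ value was 0.90 and no longer reached a fold of 2.

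NR3C2, which binds aldosterone and cortisol, was also high in LHR-, low from LHR+ to LH8 and higher again in LH20, with larger changes than ESR1. LHR- arrays read 218, 324 and 225, and LHR+ arrays 52.2, 45.9 and 52.7. The values were 35.5, 36.1 and 48.7 in LH1, 52.1, 49.9 and 30.3 in LH4, and 27.4, 40.01 and 35.9 in LH8. LH20 arrays rose to 125, 147 and 89.9, above every array of LHR+, LH1, LH4 and LH8 and below every LHR- array. The log2 change was -2.30 ± 0.24 in LHR+/LHR- (adjusted p = 2.48e-05), 1.22 ± 0.24 in LH20/LHR+ (adjusted p = 0.00162) and 1.77 ± 0.24 in LH20/LH8 (adjusted p = 0.000191). LH20/LHR-, a comparison added after the data were seen, was -1.08 ± 0.24 (adjusted p = 0.00324), so the return was partial. This last value was -0.90 without LHR- replicate 2 and -0.89 without LH20 replicate 3, both short of a fold of 2. NR3C2 has this probe set alone.

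Among the markers of other cell types, DCN, a proteoglycan gene of fibroblasts, moved in the same comparisons as ESR1 and NR3C2. Its mean was 85.0 ± 24.7 (SD, n = 3) in LHR-, 16.8 ± 4.04 in LHR+ and 163 ± 39.0 in LH20, with log2 changes of -2.25 and 3.20. PDGFRB, another fibroblast marker, was the other called member of that list and went the opposite way in LHR+/LHR- (1.04), with -0.10 in LH20/LHR+. WT1 and EPCAM, markers of the line, also changed in LHR+/LHR-, by 1.39 and -1.51. Their part in the receptor results was not tested.

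NR3C1, the glucocorticoid receptor gene, changed little but with small errors. Its mean was 3652 ± 239 (SD, n = 3) in LHR+, 4292 ± 48.8 in LH4, 3187 ± 211 in LH8 and 2970 ± 68.5 in LH20. The LH4 arrays were the highest of all 18, and the LH20 arrays the lowest. It passed the test in LH4/LHR+ (0.23 ± 0.07, adjusted p = 0.0709), LH8/LH4 (-0.43 ± 0.07, adjusted p = 0.00338) and LH20/LHR+ (-0.30 ± 0.07, adjusted p = 0.00724), all under a fold of 2. ESR2, the gene of estrogen receptor beta, was dim, between 11.9 and 37.4, and passed the test in no comparison with LHR- or LHR+.

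**Figure D2:**
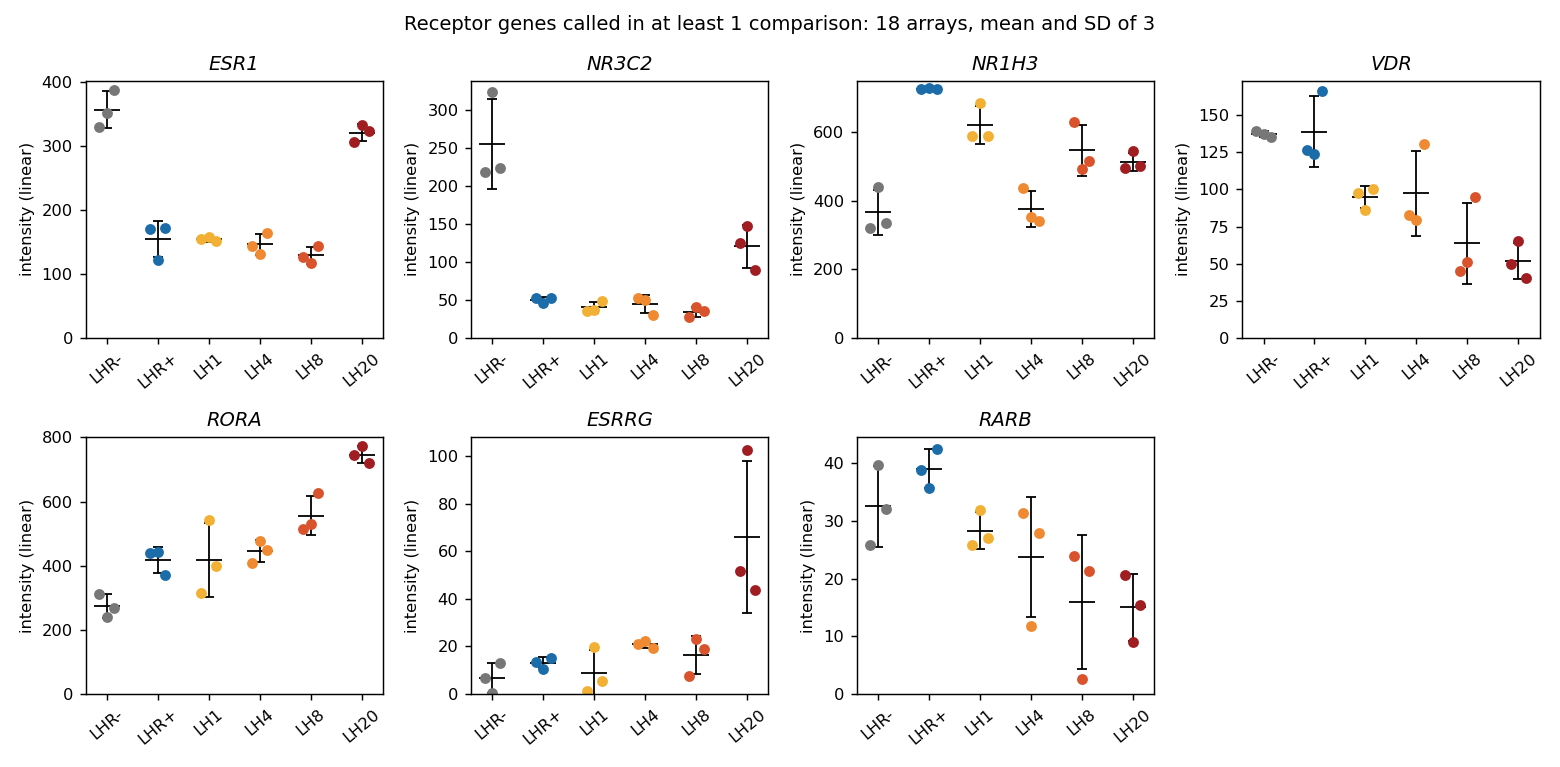
Linear intensity of the 7 receptor genes called in at least 1 of 9 comparisons. Points are single arrays, and the horizontal mark and bar are the mean and SD of the 3 arrays of a group, with every axis starting at 0. ESR1 and NR3C2 are high in LHR-, low from LHR+ to LH8 and higher again in LH20, VDR is lowest in LH8 and LH20, and RORA is highest in LH20.

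Among the receptors that sense vitamin D and thyroid hormone, VDR fell after 8 and 20 h of LH. LHR- arrays read 139, 137 and 136 and LHR+ arrays 127, 124 and 167, a log2 difference of 0.00 ± 0.26. The values were 97.5, 86.3 and 100 in LH1, 82.8, 79.1 and 130 in LH4, 45.1, 50.9 and 94.7 in LH8 and 49.6, 65.2 and 40.5 in LH20. LH8 and LH20 lay below every LHR+ array, while LH4 overlapped them. The change was -1.18 ± 0.26 in LH8/LHR+ (adjusted p = 0.0139) and -1.42 ± 0.26 in LH20/LHR+ (adjusted p = 0.000968). At LH1/LHR+ it was -0.54 ± 0.26, with adjusted p = 0.743. The LH8 call rested on LH8 replicate 1, without which the change was -0.98, and on the pooled spread, since the 6 arrays alone gave an adjusted p of 0.164. Of 3 other probe sets of VDR, 3 had the same sign at LH8/LHR+ and 2 at LH20/LHR+, none was called, and 0 of 3 had a mean log2 intensity above 6. The mean of all 4 gave -0.70 (adjusted p = 0.237) and -0.56 (adjusted p = 0.219). THRB, a thyroid hormone receptor gene, was higher in LHR+/LHR- by 0.26 ± 0.08 (adjusted p = 0.0438), and NR1I3, the xenobiotic receptor CAR, was too dim to follow.

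In the group that senses lipids and oxysterols, NR1H3 and PPARG rose in LHR+ cells and then fell with LH. NR1H3 encodes LXR alpha, which induces cholesterol efflux genes, and its arrays read 321, 442 and 335 in LHR- and 726, 728 and 728 in LHR+. With LH it was 590, 687 and 590 in LH1, 437, 353 and 341 in LH4, 631, 494 and 517 in LH8 and 496, 544 and 502 in LH20. All LH arrays were below the LHR+ arrays, and those of LH4 overlapped LHR-. The change was 1.00 ± 0.13 in LHR+/LHR- (adjusted p = 0.000186), at the edge of the fold threshold. It was 0.92 without LHR- replicate 1 and 0.95 without LHR- replicate 3, and 0.96 and 0.94 with equal array medians and quantile normalization. In LH4/LHR+ it was -0.96 ± 0.13 (adjusted p = 0.000448), just short of a fold of 2. It was higher again in LH8/LH4, by 0.54 ± 0.13 (adjusted p = 0.0328).

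PPARG, the receptor that drives fat cell genes, read 272, 267 and 231 in LHR- and 416, 420 and 380 in LHR+. It was 299, 283 and 327 in LH1, 250, 267 and 231 in LH4, 267, 291 and 268 in LH8 and 242, 234 and 258 in LH20. The LHR+ arrays were the highest of all 18. The change was 0.66 ± 0.09 in LHR+/LHR- (adjusted p = 0.000178) and then -0.42, -0.70, -0.56 and -0.73 in LH1, LH4, LH8 and LH20 against LHR+, with adjusted p of 0.0501, 0.000168, 0.0014 and 3.12e-05. PPARG was the only member to pass the test at LH1/LHR+. LH20 and LHR- differed by -0.07 ± 0.09 (adjusted p = 0.639).

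PPARA, which turns on fatty acid oxidation, went the opposite way. LHR- arrays read 564, 539 and 521, LHR+ arrays 272, 460 and 386, and LH20 arrays 699, 742 and 656, the highest of all 18. It passed the test in LHR+/LHR- (-0.57 ± 0.15, adjusted p = 0.025) and in LH20/LHR+ (0.94 ± 0.15, adjusted p = 0.000418). PPARD, its ubiquitous relative, differed by -0.10 in LH20/LHR+ at its brightest probe set.

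**Figure D3:**
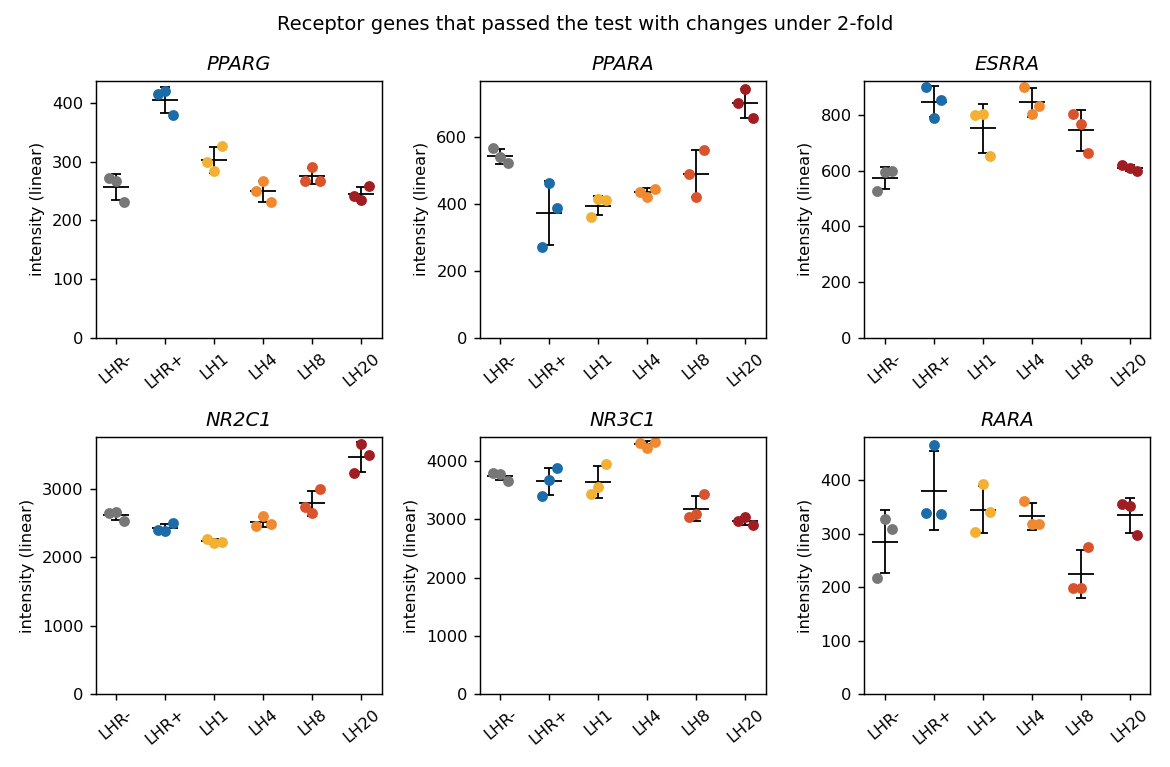
Linear intensity of 6 receptor genes that passed the test in at least 1 comparison with changes under 2-fold. Points are single arrays and the mark and bar are the mean and SD of 3, with axes starting at 0; PPARG is highest in LHR+, PPARA and the brightest probe set of NR2C1 in LH20 and NR3C1 in LH4.

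Of the retinoid receptors, RARA and RXRA passed the test with changes under a fold of 2. RARA, a retinoic acid receptor gene, had LHR+ arrays of 339, 466 and 338 and LH8 arrays of 198, 199 and 276, which did not overlap. It was lower by 0.76 in log2 units in LH8/LHR+ (-0.76 ± 0.18, adjusted p = 0.0223) and higher by 0.59 ± 0.18 in LH20/LH8 (adjusted p = 0.0367). Its probe set 203750_s_at went the other way, with means of 122 in LHR+, 132 in LH8 and 97.4 in LH20. The means of 216300_x_at (122, 107 and 122) and of 211605_s_at (39.5, 34.1 and 39.6) went the same way as the brightest. RXRA, a shared partner of many members, differed by -0.44 ± 0.13 in LH4/LHR+ (adjusted p = 0.0665) at its brightest probe set. Its other probe set, 202426_s_at, went the other way, from 187 ± 8.59 (SD, n = 3) in LHR+ to 210 ± 32.6 in LH4. RARG and RXRB passed the test in no comparison.

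RARB, itself a target of retinoic acid, was dim. It read 25.8, 39.8 and 32.1 in LHR-, 38.9, 35.8 and 42.5 in LHR+, 25.9, 31.97 and 27.1 in LH1, 31.4, 11.9 and 27.9 in LH4, 24.0, 2.67 and 21.3 in LH8 and 20.7, 9.04 and 15.5 in LH20. LH20 lay below every LHR+ array, and the change of -1.39 ± 0.59 was called with adjusted p = 0.0998, at the threshold. The call was lost without any 1 of the 3 LHR+ arrays or without LH20 replicate 2 or 3 (adjusted p of 0.157 to 0.283), and the mean of its 5 probe sets gave 0.05. RORA, an orphan receptor of the circadian clock and of lipid metabolism, rose in LHR+ cells and again by 20 h of LH. It read 312, 239 and 269 in LHR-, 440, 444 and 372 in LHR+, 314, 542 and 400 in LH1, 408, 478 and 450 in LH4, 513, 530 and 626 in LH8 and 744, 774 and 720 in LH20. At this brightest probe set the LH20 arrays were the highest of all 18, and LHR- and LHR+ did not overlap. The RORA probe sets 236266_at and 235567_at had higher means in LH1 (300 and 171) than in LH20 (244 and 163). At both of these, the LH20 arrays overlapped those of LHR+. The means of 210479_s_at and 210426_x_at were highest in LH20 (213 and 208). RORA passed the test in LHR+/LHR- (0.62 ± 0.17, adjusted p = 0.024) and LH20/LHR+ (0.84 ± 0.17, adjusted p = 0.00168), and was called in LH20/LHR- (1.45 ± 0.17, adjusted p = 1.47e-05). All 7 other probe sets of RORA had the same sign in LH20/LHR-, and 2 of them were called, while the mean of all 8 gave 0.90, short of a fold of 2. In that comparison 4 of 31 members were called and 14 passed the test, against 10.3% and 37.2% of all genes.

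Of the estrogen-related receptors, which act without estrogen on genes of energy metabolism, ESRRA rose in LHR+ cells and fell back. It read 528, 597 and 599 in LHR-, 901, 791 and 854 in LHR+ and 622, 610 and 599 in LH20, so that LHR+ did not overlap either group. The changes were 0.56 ± 0.10 in LHR+/LHR- (adjusted p = 0.00185) and -0.47 ± 0.10 in LH20/LHR+ (adjusted p = 0.00274). ESRRG was dim until 20 h of LH. It read 6.72, 0.494 and 12.9 in LHR-, 13.6, 10.6 and 15.2 in LHR+, 1.36, 19.6 and 5.40 in LH1, 21.0, 22.4 and 19.4 in LH4 and 7.73, 23.2 and 18.9 in LH8. The LH20 arrays, at 51.6, 103 and 43.6, were above all others. The change of 2.16 ± 0.80 in LH20/LHR+ was called (adjusted p = 0.0604), as was that of 3.52 ± 0.80 in LH20/LHR- (adjusted p = 0.00366). Since the LHR- arrays were near the floor, the size of the latter is uncertain, and it lay between 1.82 and 4.20 over the alternatives. The other probe set of ESRRG, 209966_x_at, had the same sign in both comparisons and was called in neither. It read 12.1, 13.8 and 19.1 in LHR- and 30.7, 28.5 and 9.61 in LH20. Without any 1 of the LHR+ arrays, or without LH20 replicate 2, the LH20/LHR+ adjusted p was between 0.103 and 0.188.

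Several other orphans passed the test with changes under a fold of 2. NR2F1, a COUP transcription factor, was 61.2, 106 and 53.8 in LHR+ and 43.8, 33.5 and 29.7 in LH20 (-0.98 ± 0.35, adjusted p = 0.0525). NR2E3, a factor of photoreceptors, was 55.9, 58.1 and 74.5 in LHR+ and 83.4, 146 and 136 in LH8 (0.91 ± 0.23, adjusted p = 0.0292). HNF4G differed by -0.53 ± 0.19 in LHR+/LHR- (adjusted p = 0.0885) and by -0.94 ± 0.19 in LH20/LHR- (adjusted p = 0.00176). NR2C2 differed by -0.27 ± 0.08 in LHR+/LHR- (adjusted p = 0.0521). NR2F6 and NR6A1 did not pass the test in LHR+/LHR- or against LHR+ at any time.

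Between successive LH times, members and all genes alike were called most often in the last step. In LH20/LH8, 2 of 31 were called (6.45%), ESR1 and NR3C2, against 4.59% of all genes. In the same step 9 members passed the test (29.0%), close to the 25.5% of all genes. No member was called in LH4/LH1 (1.79% of all genes) or LH8/LH4 (1.31%), and the analysis of variance also gave 0 there. In these steps 5 and 3 members (16.1% and 9.68%) passed limma's test, against 8.61% and 8.05% of all genes. The unadjusted p was under 0.05 for 10 and 6 members, again without a share of all genes to set beside these counts.

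The 31 genes had 104 probe sets, and 24 of the genes had several. Of the 73 probe sets not used above, 6 were called in at least 1 of the 5 comparisons with LHR- or LHR+. The share for all probe sets of the array was not counted. NR2C1, the gene of testicular receptor 2, and PPARD are described because their calls differed from the brightest probe set, in sign for NR2C1 and in size for PPARD, and were chosen after their values were seen. The brightest probe set of NR2C1 read 2403, 2384 and 2503 in LHR+ and 3228, 3661 and 3501 in LH20 (0.51 ± 0.07, adjusted p = 6.14e-05). Its probe set 210531_at fell from 229 ± 52.2 (SD, n = 3) in LHR+ to 96.0 ± 7.64 in LH20 (-1.22 ± 0.15, adjusted p = 6.79e-05 over all probe sets), and 210530_s_at from 621 ± 39.6 to 336 ± 54.7 (-0.90 ± 0.17, adjusted p = 0.00225). Probe sets of NR2C1 thus moved in opposite directions in the same RNA, so no direction is given for the gene. For PPARD, 242218_at fell from 267 ± 13.9 in LHR+ to 87.0 ± 21.5 in LH20 (-1.63 ± 0.22, adjusted p = 0.000119), while the brightest and 208044_s_at differed by -0.10 and -0.02. The other 4 belonged to ESR1 and RORA, with the sign of the brightest probe set, and to ESR2 and RORB. ESR2 had a call of 2.31 in LH20/LHR+ at a probe set between 0.348 and 13.1 over the arrays, against -0.19 at its brightest, and RORB had calls of -1.79 in LHR+/LHR- and 2.12 in LH20/LHR+ at a probe set between 0.322 and 17.4. Both lay at or near the bottom of the intensity range. Which transcripts these probe sets detect was not examined. Of 8 other probe sets of ESR1, 5 shared the sign of the brightest in LH20/LHR+, and 0 of 8 had a mean log2 intensity above 6. The mean of all 9 gave 0.59 in LH20/LHR+ (adjusted p = 0.069) and -0.47 in LHR+/LHR- (adjusted p = 0.225), neither of which was a call.

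**Figure D4:**
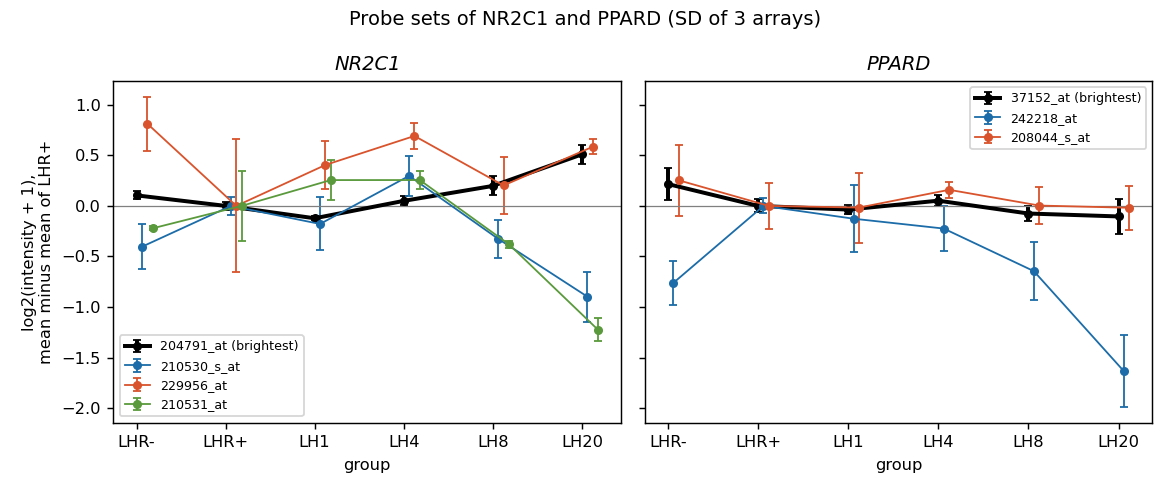
Probe sets of NR2C1 (left) and PPARD (right) that were at least 16 on every array, as mean log2(intensity + 1) of 3 arrays minus the LHR+ mean, with the SD as bars, over the 6 groups. The black line is the brightest probe set; in LH20 2 probe sets of NR2C1 and 1 of PPARD lie well below it.

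Genes that work with the receptors, or that they control, were taken from lists of textbook members. Of 28 coregulators, 25 were measured, and at LH20/LHR+ 8 passed the test upward and 5 downward, where 34.0% of all genes passed in either direction. The list median was -0.00 and that of all genes -0.00. PNRC1, a coactivator that binds many nuclear receptors, rose from 1218 ± 177 (SD, n = 3) in LHR+ to 3354 ± 538 in LH20 (1.46 ± 0.17, adjusted p = 2.25e-05). PPARGC1B, a coactivator of PPAR and estrogen-related receptors, fell from 90.4 ± 34.8 to 34.0 ± 17.2 (-1.43 ± 0.43, adjusted p = 0.0215). SIRT1, a deacetylase acting on several receptors, was called at LH4/LHR+ (1.11 ± 0.32, adjusted p = 0.0506).

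Of 19 genes of glucocorticoid and mineralocorticoid action, 18 were measured, and 3 passed the test upward and 5 downward at LH20/LHR+, with a median of -0.02. FKBP5, a chaperone partner and target of both receptors, went from 117 ± 32.6 in LHR- to 473 ± 61.7 in LHR+ (2.04 ± 0.18, adjusted p = 5.34e-06), and to 69.2 ± 9.78 in LH20 (-2.76 ± 0.18, adjusted p = 1.51e-07). KLF9, a glucocorticoid target, rose from 115 ± 8.30 in LHR+ to 284 ± 2.7 in LH20, and SCNN1A, a sodium channel subunit controlled by aldosterone, rose by 1.61 ± 0.42 (adjusted p = 0.00966). SGK1, a kinase that both receptors induce, rose early, from 2357 ± 82.8 in LHR+ to 9947 ± 1231 in LH1 (2.07 ± 0.09, adjusted p = 2.17e-08), and was 2241 ± 182 in LH20.

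Of 11 genes responsive to estrogen or progesterone, all were measured, and 3 passed upward and 3 downward at LH20/LHR+, with a median of 0.37. CA12, a carbonic anhydrase induced by estrogen in breast cells, rose from 709 ± 183 in LHR+ to 1830 ± 204 in LH4, 2656 ± 153 in LH8 and 7937 ± 634 in LH20. In LH4/LHR+, where CA12 was already called, ESR1 differed by -0.07 ± 0.13 (adjusted p = 0.844). Whether ESR1 has a part in the change of CA12 was not tested, and RNA gives no measure of receptor activity. STC2, a secreted glycoprotein also induced by estrogen, fell from 3060 ± 262 in LHR- to 1519 ± 146 in LHR+ and 167 ± 15.3 in LH20.

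Of 21 genes of retinoid handling and response, 19 were measured, and 2 passed upward and 3 downward at LH20/LHR+, with a median of 0.04. RBP7, a retinol-binding protein, went from 49.0 ± 4.22 in LHR- to 2637 ± 125 in LHR+ and stayed there with LH. ALDH1A3, which makes retinoic acid, fell from 632 ± 64.8 in LHR- to 221 ± 23.5 in LHR+ and 44.2 ± 12.5 in LH20. TGM2, a transglutaminase induced by retinoic acid, fell from 341 ± 18.6 to 48.2 ± 11.5 in LHR+, and RDH10, which oxidizes retinol, rose from 1496 ± 76.4 in LHR+ to 3571 ± 45.1 in LH20. RARRES2 was also called upward at LH20/LHR+ (1.08 ± 0.19, adjusted p = 0.000655).

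Of 13 targets of LXR and FXR, 2 passed upward and 2 downward at LH20/LHR+, with a median of 0.26. ABCA1, the cholesterol efflux pump that LXR induces, read 1786 ± 111 in LHR-, 2636 ± 140 in LHR+, 1562 ± 66.1 in LH4, 1519 ± 5.74 in LH8 and 962 ± 34.7 in LH20. It passed the test upward in LHR+/LHR- and downward at 4, 8 and 20 h against LHR+. In LHR+/LHR-, 1 of the 13 targets passed upward and 1 downward, with a median of -0.04. A link between ABCA1 and NR1H3 was not tested. Of 16 PPAR targets, 14 were measured, with 6 passing upward and 0 downward at LH20/LHR+, where 16% of all genes passed upward and 18% downward, and a median of 0.30. PDK4, a kinase that spares glucose, rose from 73.8 ± 14.5 in LHR+ to 187 ± 13.6 in LH20, and CD36, a fatty acid carrier, rose by 2.07 ± 0.61 (adjusted p = 0.0206) from a dim level. In LHR+/LHR-, UCP2, a mitochondrial carrier, rose by 2.96 ± 0.27 (adjusted p = 6.39e-06), and FABP4, a fat cell gene, fell from 53.8 ± 22.9 to 5.21 ± 5.03.

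Of 11 targets of the vitamin D and xenobiotic receptors, 10 were measured, and 1 passed upward and 1 downward at LH20/LHR+, with a median of -0.07. CYP24A1, which degrades vitamin D and is a classic target of VDR, went from 365 ± 53.2 in LHR+ to 1839 ± 152 in LH4, 1134 ± 70.1 in LH8 and 1300 ± 213 in LH20, with changes of 2.34, 1.64 and 1.83. VDR was called lower at 8 and 20 h, while its LH4 arrays overlapped those of LHR+ (-0.53 ± 0.26, limma adjusted p = 0.293). A link between CYP24A1 and VDR was not tested. CYP27B1, which activates vitamin D, fell from 197 ± 40.5 in LHR+ to 96.6 ± 5.61 in LH20. Of 12 family genes outside the module, 8 were measured, and those called up at LH20/LHR+ were the 3 NR4A genes.

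**Figure D5:**
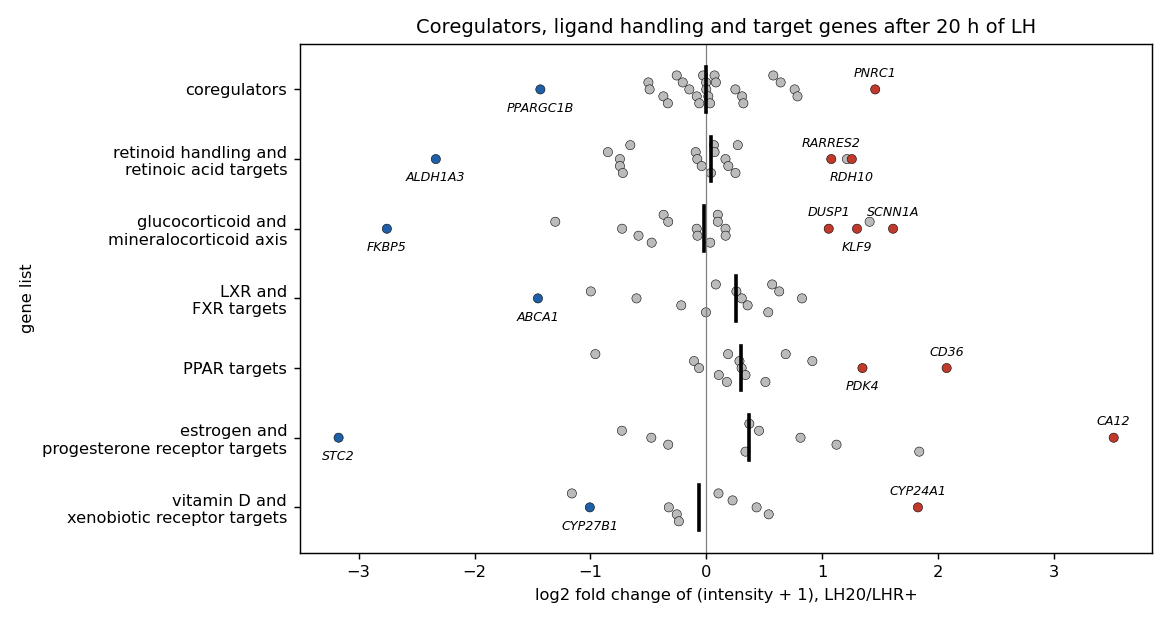
Log2 fold change of intensity + 1 in LH20/LHR+ for the genes of 7 lists, 1 point per gene. Red points were called up, blue points called down and grey points not called; the vertical bars are the list medians, which lie between -0.07 and 0.37. A grey point far from 0 belongs to a gene that did not meet all the criteria for a call, and some grey genes passed the test.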

How the data were processed

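The authors deposited 1 table of probe set intensities on a linear scale for 18 arrays of amplified RNA. The paper names RMA for the summarization and the sample labels name PLIER, with settings not given in the sources used here. No further scaling was applied, and log2(intensity + 1) was used. Of 54675 probe sets, 41097 listed 1 gene, 1801 several and 11777 none in the annotation used, and a gene was represented by the single-gene probe set with the highest mean. The 19775 genes were fitted with limma 3.58.1 in R 4.3.3 with a mean for every group, and p was adjusted over all genes of a comparison. The p, adjusted p and fold thresholds are those of the methods, and limma took the place of ANOVA and Mann-Whitney tests, since an exact permutation test of 3 arrays against 3 cannot go below p = 0.1. The number of arrays limits the precision. Receptor genes called in any comparison were named with every array. Listed genes were named from among those called, up to 3 each way, and not every called one was named. The members and lists were chosen with earlier results of these data known. The procedure was tested on simulated data. Alternatives were another added value, 2 scalings, a filter on dim genes, the mean of all probe sets, fewer arrays, a replicate block, ANOVA and no fold threshold.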

Additional observations from a re-analysis of the deposited data

Results flagged for a closer look

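Effects of LH at different times differed for ESR1 and NR3C2. Against LHR+, ESR1 was called only after 20 h, and the direct test of 20 h against 8 h gave 1.31 ± 0.13 (log2, SE; limma adjusted p = 1.51e-05), with all 3 LH20 arrays above all 3 LH8 arrays. For NR3C2 the same test gave 1.77 ± 0.24 (adjusted p = 0.000191), again with no overlap.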

How the results depend on the processing

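The number of receptor genes called depended most on the fold threshold. Without it, 9 were called in LHR+/LHR-, 1, 4, 6 and 13 in LH1, LH4, LH8 and LH20 against LHR+, 5 in LH4/LH1, 3 in LH8/LH4, 9 in LH20/LH8 and 13 in LH20/LHR-. Shares of all genes under this and the following alternatives are not given. The counts therefore show how the calls depend on processing and are no result about the receptors as a group. With only genes brighter than the median gene, 0 members were called in LH8/LHR+ and 1 each in LH20/LHR+, LH20/LH8 and LH20/LHR-, as NR3C2, VDR, ESRRG and RARB are dimmer than that. The mean of all probe sets of a gene gave 0 in LH8/LHR+, 3 in LH20/LHR+ and 1 in LH20/LH8. With 16 added, LH20/LHR+ gave 3, equal array medians gave 1 in LH4/LHR+, and the 6 arrays of LH8/LHR+ alone gave 0. Leaving out 1 array gave 2 to 4 in LHR+/LHR-, 0 in LH1/LHR+, 0 to 1 in LH4/LHR+, 1 to 2 in LH8/LHR+, 3 to 6 in LH20/LHR+, 0 to 1 in LH4/LH1, 0 in LH8/LH4, 2 to 3 in LH20/LH8 and 3 to 6 in LH20/LHR-. What the replicate numbers stand for is not said in the sources used here. Over all genes, deviations of same-numbered arrays correlated between -0.02 and 0.05, and those of different numbers between -0.06 and 0.05. Dim genes were included, so this is no full test of pairing. A fit with the replicate number as a block gave 2 calls in LH8/LHR+ and left the other counts within 1.5 times. Over 15 calls of single genes and 215 values, 182 kept direction and call, 32 lost the call and 1 reversed, RARB in LH20/LHR+, at 0.0485 with the mean of all probe sets. Its other 4 probe sets were averaged in there, and the cause of the other changes was not tested. With equal array medians, the median of all genes was -0.10 in LH1/LHR+ and 0.10 in LH8/LH4, against -0.008 and 0.005 without that scaling. Brightness limits what can be read from the 9 members under 16 on some array.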
